A study of Drosophila melanogaster with 2 samples.

Results

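The genes that encode the proteins of the small (40S) subunit of the cytoplasmic ribosome were examined for peaks of shuttle craft (stc), the fly relative of the human zinc finger factor NFX1, in the fruit fly Drosophila melanogaster. They were chosen by symbol from the protein-coding genes of the Ensembl annotation BDGP6.54, as all genes whose symbol starts with RpS and a digit, and sta, which encodes the fly RpSA protein. The rule gave 39 genes of 13945. No measured value entered the rule itself, but the set was chosen with earlier results of these data known. The measurements came from chromatin immunoprecipitation and sequencing (ChIP-seq), in which DNA crosslinked to a protein is recovered with an antibody and sequenced. All samples were whole embryos aged 0 to 24 h of a strain with an insertion that expresses stc fused to enhanced green fluorescent protein (eGFP), and the antibody was against GFP. There were 2 biological replicates of this 1 group, and no control experiment, untagged strain or second condition was analysed here. The values therefore average over every embryonic cell type and stage, and background at open or highly transcribed promoters cannot be told apart from binding of the tagged protein. The labels do not say which promoter drives the fusion or whether an untagged copy of stc remained.

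The small subunit binds the messenger RNA and holds the decoding centre, where codons are read against transfer RNAs. Its proteins assemble on the 18S ribosomal RNA in equal amounts, and loss of one copy of many of these genes in flies gives the Minute phenotype of slow growth and short bristles. Many ribosomal protein genes of flies start transcription at a polypyrimidine initiator called the TCT motif, and many carry near it the DNA replication-related element (DRE), the site of the factor DREF.

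The deposited files are lists of peaks, intervals with an excess of reads, each with a summit and a signal, the authors' value of its height. A gene was called bound when a summit of the conservative list, which holds the peaks kept between both replicates, lay within 250 bp of one of its transcription start sites (TSSs). Positions are given from the nearest TSS, which is 0, and negative positions are upstream. The promoters of 7 of the genes show what the summits were set against. RpS27 had the strongest peak, RpS25 was bound and holds both a DRE and a TCT core, and RpS6 was not bound and holds both as well. The pairs RpS14a with RpS14b and RpS19a with RpS19b are paralogues of which the second and the first, respectively, was bound. Each sequence runs 5′ to 3′ on the strand of the gene for 121 bases. It goes from 100 bases before to 20 bases after the TSS farthest 5′, which is base 101. Capitals mark the DRE word TATCGATA and the TCT core, CTTTT or TCTTT with its first C within 5 bp of the TSS. The bases are from RefSeq Release 6, the assembly also named dm6.
RpS27 (chr3R:25247494-25247614, minus strand): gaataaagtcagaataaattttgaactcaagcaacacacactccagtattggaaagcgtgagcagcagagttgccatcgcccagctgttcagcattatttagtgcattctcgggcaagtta
RpS25 (chr3R:11216267-11216387, minus strand): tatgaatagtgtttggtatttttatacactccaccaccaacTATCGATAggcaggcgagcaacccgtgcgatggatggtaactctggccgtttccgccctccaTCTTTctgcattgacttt
RpS6 (chrX:7901311-7901431, minus strand): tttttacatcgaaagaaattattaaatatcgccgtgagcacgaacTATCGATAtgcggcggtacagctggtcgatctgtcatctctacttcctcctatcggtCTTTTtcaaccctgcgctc
RpS14b (chrX:7934798-7934918, plus strand): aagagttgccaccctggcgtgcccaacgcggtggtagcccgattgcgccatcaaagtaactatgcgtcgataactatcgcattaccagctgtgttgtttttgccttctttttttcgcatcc
RpS14a (chrX:7933642-7933762, plus strand): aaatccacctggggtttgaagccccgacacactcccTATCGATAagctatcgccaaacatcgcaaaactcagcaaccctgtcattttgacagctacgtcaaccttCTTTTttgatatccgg
RpS19a (chrX:16637794-16637914, plus strand): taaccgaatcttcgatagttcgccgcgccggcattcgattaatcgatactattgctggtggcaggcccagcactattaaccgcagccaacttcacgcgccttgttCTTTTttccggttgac
RpS19b (chr3R:23933510-23933630, minus strand): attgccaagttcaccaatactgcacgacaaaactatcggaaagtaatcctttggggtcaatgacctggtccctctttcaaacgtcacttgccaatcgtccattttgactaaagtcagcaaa
The summit lay at -9 in RpS27 and at -42 in RpS25, where the DRE starts at -59. In RpS6 the DRE starts at -55 and the C of the TCT core stands at 2. In RpS14b the summit lay at -29, and this stretch holds no DRE and no TCT core within 5 bp of the TSS. The letters CTTTT occur in it just beyond that reach. RpS14a, which was not bound, holds a DRE at -64 and a TCT core at 5. RpS14b and RpS27 each hold a TCT core at another of their TSSs, so its absence here rests on the TSS drawn. In RpS19a the summit lay at 13, with the C of the TCT core at 5. RpS19b holds no DRE and no TCT core within 5 bp of its TSS, although the letters TCTTT occur farther upstream.

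The conservative list held a summit at 21 of the 39 small subunit genes (53.8%, exact 95% confidence interval 37.2 to 69.9), against 10.2% of all protein-coding genes. The larger thresholded list of the series held one at 26 genes (66.7%, 49.8 to 80.9), against 13.4% of all protein-coding genes. The 26 include 5 genes without a peak in the conservative list, which holds the peaks kept between both replicates. Replicate 1's own thresholded list gave 16 genes (41.0%, 25.6 to 57.9) against 8.18%, and replicate 2's gave 23 (59.0%, 42.1 to 74.4) against 10.8%. In each of the 4 lists the share among these genes was above that among all protein-coding genes. The intervals cover counting error only and treat genes as independent draws, although all genes were read from the same libraries. The set was also chosen with earlier results of these data known, so the intervals are not a test of the gap. The series lists combine both replicates, so the 4 lists are not independent of each other. The large subunit genes, which share the promoter types named above, were bound at 36 of 54 (66.7%, 52.5 to 78.9). The interval of the small subunit overlaps theirs, and no difference between the subunits was tested. The proteins of the mitochondrial small subunit, made for another ribosome, were encoded by 26 genes, of which 5 were bound (19.2%, 6.55 to 39.4).

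**Figure D1:**
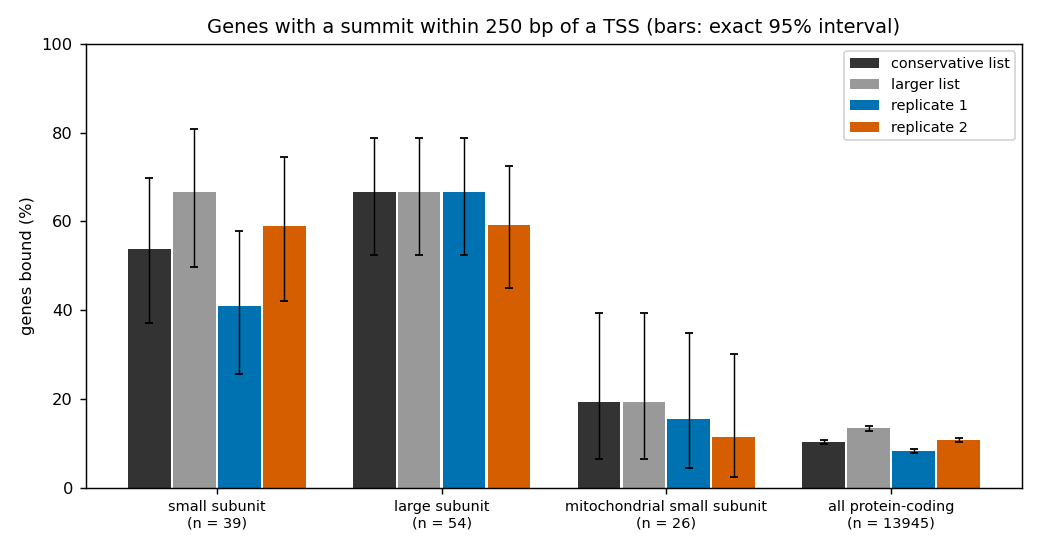
Share of genes, in percent, with a summit within 250 bp of a TSS in each of 4 peak lists, for the small subunit, the large subunit, the mitochondrial small subunit and all protein-coding genes. Bars start at 0 and error bars are exact 95% confidence intervals; the small subunit bars stand between 41.0% and 66.7% and the bars of all protein-coding genes between 8.18% and 13.4%.

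A thresholded peak was present at 27 of the 39 genes in at least 1 of these 4 lists, and at 13 in the own lists of both replicates. All 13 were also bound in the conservative list. Both own lists held 31 of the 54 large subunit genes and 832 of the 13852 protein-coding genes outside the cytoplasmic ribosome. The share of all protein-coding genes in at least 1 of the 4 lists was not computed, so the 27 have no background beside them. Replicate 1 alone gave 3 genes, among them RpS10b and RpS12, and replicate 2 alone gave 10, among them RpS3, RpS3A, RpS9, RpS14b, RpS15, RpS18, RpS24 and RpS30. Replicate 2 had the longer list, with 3806 peaks on the main chromosomes against 2767 in replicate 1. The 12 genes in no thresholded list included RpS2, RpS6, RpS13, sta, RpS10a, RpS14a, RpS15Ab, RpS19b, RpS28a and RpS28-like.

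The absence of a thresholded peak was not always the absence of any peak, and less often so in replicate 2 than in replicate 1. The ranked lists, which hold peaks before the threshold and are much longer, had a summit at 32 of the 39 genes in replicate 1 and 38 in replicate 2. Such a summit was also common elsewhere, at 51.8% of all protein-coding genes in replicate 1 and 60.0% in replicate 2. Among the 18 genes not called bound, replicate 1 had a ranked peak at 11 and replicate 2 at 17. RpS19b was the 1 gene without a ranked peak in either replicate or in the series.

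Among bound genes the small subunit peaks were of middling height. Their signal in the conservative list ranged from 82.0 to 362.0 with a median of 135.6, against a median of 156.6 over all 1429 bound protein-coding genes and 180.3 over the bound large subunit genes. Of all bound protein-coding genes, 41.8% had a signal under the small subunit median, and none of the 100 strongest was a small subunit gene. How the signal was scaled is not given here, and the heights of different lists are not compared.

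**Figure D2:**
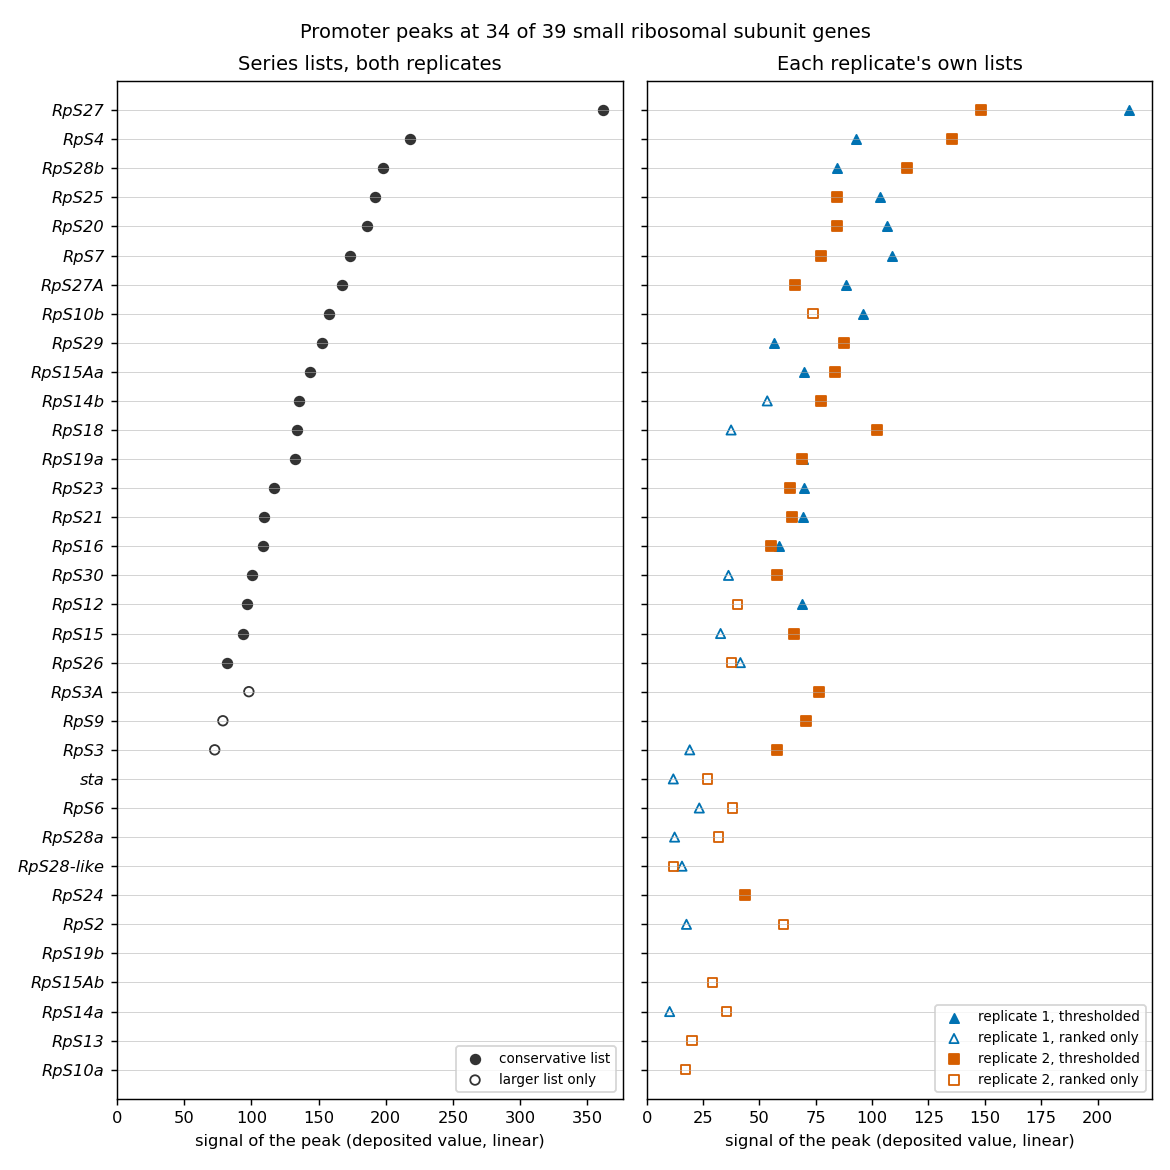
Signal of the promoter peak (deposited value, linear axis from 0) at 34 of the 39 genes, in the series lists (left) and in the lists of each replicate (right). Filled points passed the threshold of their list and open points are in the larger list only (left) or in the ranked list only (right); RpS27 is highest in both panels, at 362.0 in the conservative list, and RpS19b has no point.

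RpS27 (FBgn0039300), a zinc-binding protein of the body of the subunit, carried the strongest peak of the genes, at chr3R:25247403-25247614 with a conservative signal of 362.0. It was rank 324 of the 3831 conservative peaks, and the summit lay at -9. Its signal was 214.2 in replicate 1 and 148.3 in replicate 2, the highest of the small subunit genes in both. A weaker peak with a signal of 21.7 had its summit at -220 of the same gene.

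The body of the subunit accounts for 20 of the 39 genes, of which 10 were bound. The assignment to head or body is textbook knowledge of the eukaryotic ribosome and not from the files. Replicate 1's own list held 6 of the body genes and replicate 2's held 12. After RpS27 came RpS4, an RNA-binding protein of the body, at chr3L:13041695-13041830 with a conservative signal of 217.7 at -11. It had a signal of 92.8 in replicate 1 and 135.6 in replicate 2, at 12 and 3. RpS7, whose human counterpart is mutated in Diamond-Blackfan anaemia, had 173.2 at -22 (chr3R:30208795-30209144), with 108.6 in replicate 1 and 77.5 in replicate 2. The replicates placed the RpS7 summit 93 bp apart, at -24 and 69, the widest gap among the genes called in both.

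Lower in the body genes, RpS15Aa had a conservative signal of 143.8 at -10, with 69.9 in replicate 1 and 83.6 in replicate 2. RpS14b, a protein of the platform near the mRNA exit, had 135.6 at -29, with 77.2 in replicate 2. In replicate 1 its ranked peak of 53.5 had an irreproducible discovery rate (IDR, a measure from the ranks of a peak in a pair of lists) of 0.0101, just short of the threshold. All conservative peaks had an IDR of at most 0.00999. Which pair of lists the IDR of a single replicate's peaks compares is unknown here, so these values only place a peak within its own list.

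RpS23, a protein of the decoding centre that bears on its accuracy, had a conservative signal of 116.4 at -10, with 69.8 in replicate 1 and 63.5 in replicate 2. A further conservative peak with a signal of 101.5 had its summit 1614 bp downstream of the nearest RpS23 TSS, past the annotated 3′ end of the gene. Which gene that peak belongs to was not examined. RpS21, reported in flies to interact with sta, had 109.1 at 26, with 69.4 in replicate 1 and 64.6 in replicate 2.

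RpS30, made as a fusion with a ubiquitin-like protein, had a conservative signal of 100.7 at 9, with 57.7 in replicate 2. In replicate 1 it had only a ranked peak of 36.3, at 10 (IDR 0.0398). RpS26, which lines the mRNA exit channel, was the weakest bound gene, with 82.0 at 29. It was the 1 bound gene whose peak overlapped neither replicate's own list: its ranked peaks were 41.6 in replicate 1 (IDR 0.0211) and 37.5 in replicate 2 (IDR 0.115). Its series IDR of 0.00959 was just inside the threshold.

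The unbound body genes split by list. RpS3A, on the small chromosome 4, and RpS9, a protein near the mRNA entry that bears on decoding accuracy, were in the larger list. Their signals there were 98.1 at -16 and 78.7 at -81. In the ranked list of the series RpS9 had an IDR of 0.731 and RpS3A had no peak. None of the 5 genes that the larger list adds had a series ranked peak within the 0.00999 of the conservative peaks. Both RpS3A and RpS9 were in replicate 2's own list, with 76.5 for RpS3A and 70.8 for RpS9, and had no ranked peak in replicate 1. RpS24 was in replicate 2's list alone, with 43.5 at 146, and had no ranked peak in replicate 1 either.

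RpS6, the classical substrate of S6 kinase, had ranked peaks only, with 23.3 in replicate 1 (IDR 0.239) and 38.1 in replicate 2 (IDR 0.0362). RpS2, known in flies as string of pearls for its oogenesis phenotype, had 17.6 in replicate 1 (IDR 0.824) and 60.6 in replicate 2 (IDR 0.575). For sta the values were 11.8 (IDR 0.917) and 27.1 (IDR 0.245). RpS13 had no ranked peak in replicate 1 and one of 20.1 in replicate 2 (IDR 0.576).

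The head of the subunit, which swivels during translocation, accounts for 19 genes, of which 11 were bound (10 in replicate 1's own list and 11 in replicate 2's). The median conservative signal of the bound head genes was 152.7 and that of the bound body genes 130.2, with medians of position of -27 and -9.5. The counts of head and body genes in the conservative list, 11 of 19 and 10 of 20, lie within the interval of each other, and no difference was tested.

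RpS28b, which lies near the mRNA exit, was the strongest of the head genes, with a conservative signal of 198.0 at -41 (chrX:9554500-9554624). Replicate 1 gave 84.6 and replicate 2 gave 115.5, at -35 and -32. RpS25, needed for some internal ribosome entry sites, had 192.3 at -42 (chr3R:11216154-11216503), with 103.7 in replicate 1 and 84.6 in replicate 2. RpS20 had 186.1 (chr3R:20821984-20822090), with 106.4 and 84.6.

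The RpS20 summit was the farthest upstream of the 21, at -149, and both replicates also placed it far upstream, at -164 and -123. RpS27A, made as a fusion to ubiquitin, followed with 167.0 at -90 (chr2L:10408087-10408436), and the replicates, with 88.2 and 65.7, placed it at -90 and -83. RpS10b had a conservative signal of 158.0 at -2, with 96.1 in replicate 1. In replicate 2 its ranked peak of 73.7 had an IDR of 0.0184 and missed the threshold.

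RpS29, a small zinc-binding protein, had 152.7 at -27, with 56.6 in replicate 1 and 87.7 in replicate 2. RpS18 had 133.8 at 2, with 102.0 in replicate 2 and only a ranked peak of 37.4, at 2 (IDR 0.0400), in replicate 1. RpS19a, needed in other species for 18S ribosomal RNA maturation, had 132.4 at 13, with 69.5 and 68.9 in the replicates, both also at 13. The replicates agreed to the base at this 1 gene of the 13 called in both.

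RpS16 had a conservative signal of 108.4 at 15, with 58.6 in replicate 1 and 55.1 in replicate 2. RpS12, required in flies for the competition between wild-type and Minute cells, had 96.6 at -57, with 68.8 at -59 in replicate 1. In replicate 2 it had only a ranked peak of 40.2, at 29 (IDR 0.319). RpS15, whose tail reaches the decoding centre, had 93.8 at 43, with 65.3 at 45 in replicate 2. In replicate 1 it had only a ranked peak of 32.8, at -6 (IDR 0.0191).

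Of the unbound head genes, RpS3, a protein at the mRNA entry, was in the larger list, with 72.6 at 92 and a series IDR of 0.374. It was in replicate 2's own list, with 57.9, and in replicate 1 its ranked peak was 19.1. The unbound head genes in no thresholded list were 5, all of them members of paralogue families.

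The conservative peaks of these genes lay around the start site rather than upstream of it. Over the 21 genes the median position was -10, with an interquartile range of -29 to 13, and 17 summits (81.0%) lay within 50 bp of the TSS. Over all 1429 bound protein-coding genes the median was -115, and 232 (16.2%) lay within 50 bp. The bound large subunit genes resembled the small subunit genes, with a median of -16 and 69.4% within 50 bp. The 5 bound mitochondrial small subunit genes had a median of -135 and none within 50 bp.

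**Figure D3:**
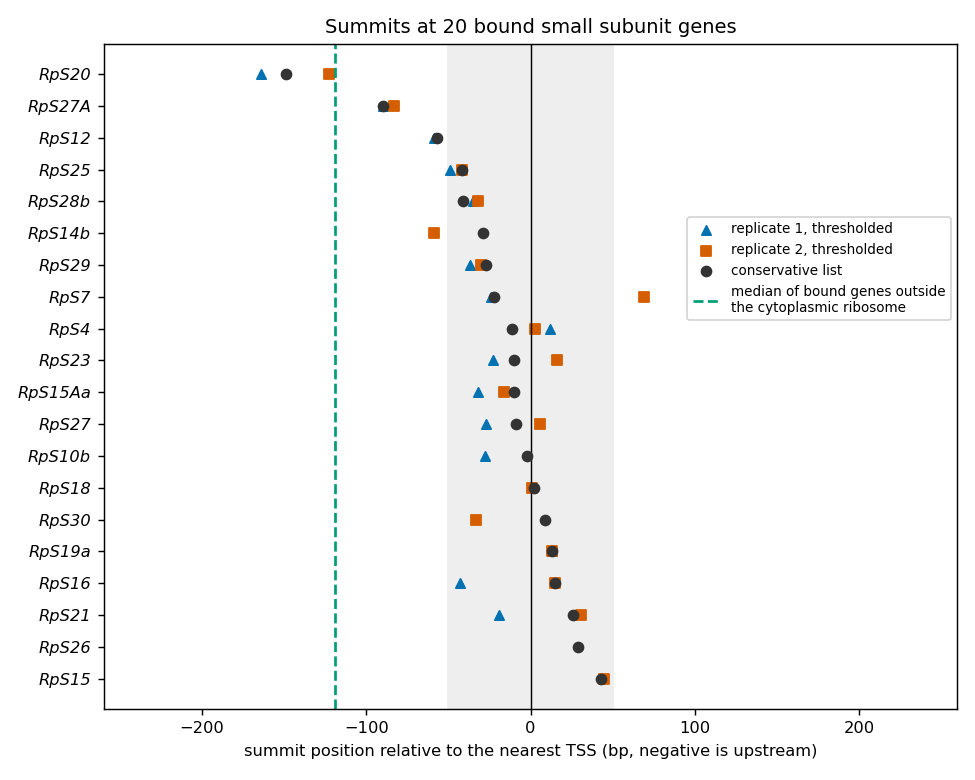
Position of the summit relative to the nearest TSS (bp, negative is upstream) at 20 of the 21 bound genes, in the conservative list and in the thresholded list of each replicate. The shaded band is 50 bp on either side of the TSS and holds 17 of the 20 conservative summits, and the dashed line is the median of bound genes outside the cytoplasmic ribosome, -119.

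The positions were also compared among genes of similar signal and among genes without a head-to-head neighbour, and what set the gap was not tested. The 1069 other bound genes with a signal in the same range, large subunit genes included, had a median position of -114. The 14 bound small subunit genes without a head-to-head neighbour had a median of -10.5. Among them is RpS27A, which has the same annotated TSS as Ip259. The 651 bound genes outside the cytoplasmic ribosome without such a neighbour had a median of -115. Of the 21 peaks, 16 were 350 bp wide with the summit at their centre, a width shared by 73.4% of the 3831 conservative peaks. How those summits were placed is unknown here, and they may be less exact than their unit of 1 bp.

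The side of the TSS depended on the replicate. In the conservative list 13 summits were upstream and 8 downstream, and the median of -10 became -33.5 in replicate 1's own list and 6 in replicate 2's. With the TSS farthest 5′ taken in place of the nearest, the median was 5.5. At the 13 genes called in both own lists, the replicate 2 summit was further downstream at 11, further upstream at RpS4 and equal at RpS19a, with a median difference of 16 bp (interquartile range 7 to 41). The 31 large subunit genes called in both had a median difference of 14 bp, with replicate 2 downstream at 21. The 832 genes outside the cytoplasmic ribosome had a median difference of 1 bp, with replicate 2 downstream at 52.4%. What set the replicates apart was not tested. Across the 13 genes Spearman's rho between the replicate signals was 0.51, a description over genes that share their libraries.

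Paralogues differed in their calls in most families. There are 6 families with more than 1 gene, among them RpS10, RpS14, RpS15A, RpS19 and RpS28, with 13 genes in all, of which 5 were bound. In 5 families exactly 1 gene was bound (RpS10b, RpS14b, RpS15Aa, RpS19a and RpS28b), in 1 family none was, and in no family were all bound. The 26 genes without a paralogue were bound at 16. Of the 8 unbound family genes, 7 were in no thresholded list, and of the 10 unbound genes without a paralogue, 5 were in none.

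The unbound copies RpS10a, RpS14a, RpS15Ab, RpS28a and RpS28-like had ranked peaks only. RpS10a had none in replicate 1 and 17.1 in replicate 2 (IDR 0.532). RpS14a had 10.2 (IDR 0.917) and 35.3 (IDR 0.326). RpS15Ab had none in replicate 1 and 29.3 in replicate 2 (IDR 0.548). In replicate 2's ranked list these were below the values of their bound paralogues, which were 73.7 for RpS10b, 77.2 for RpS14b and 83.6 for RpS15Aa.

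RpS28a had 12.4 in replicate 1 (IDR 0.917) and 31.8 in replicate 2 (IDR 0.0164), and RpS28-like had 15.6 (IDR 0.917) and 11.97 (IDR 0.315). RpS19b, known as a germline copy of RpS19, had no peak in any list.

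The promoters of paralogues were as alike as those of small subunit genes of different families. Over the 300 bases from 250 before to 49 after the TSS farthest 5′, identity in a global alignment was 53.6% for RpS14a with RpS14b, 50.3% for RpS15Aa with RpS15Ab and 48.3% for RpS10a with RpS10b. It was 49.9% for both RpS19a with RpS19b and RpS28a with RpS28b. Among 733 pairs from different families the median was 50.7% and the highest 57.5%. Coding identity was 97.8% for the RpS14 pair, 98.2% for RpS15A, 76.9% for RpS28a with RpS28b, 74.5% for RpS10 and 69.2% for RpS19. RpS28-like was the most diverged, at 57.3% and 55.7% of the coding sequence of RpS28a and RpS28b.

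RpS14a (chrX:7933742-7934677) and RpS14b (chrX:7934898-7935792) stand in tandem, and the summit of the conservative peak (chrX:7934805-7934916) lay between them, while the peak itself reached past the start of RpS14b. How reads that match more than 1 copy were placed is unknown here, and the RpS14 and RpS15A pairs are the ones most alike in coding sequence.

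Close neighbours stood at both bound and unbound genes. A head-to-head neighbour has a TSS on the opposite strand within 500 bp upstream of the gene's TSS farthest 5′, from which its distance is given. One stood at 7 of the 21 bound genes, 8 of the 18 unbound ones and 29.5% of all protein-coding genes. The summits of RpS16 and RpS21 were placed from another TSS, farther downstream, so they lie farther from the neighbour than these distances show. At the bound genes the neighbours were CG4294 (78 bp from RpS16), plu (295 bp from RpS18), Rok (480 bp from RpS19a), CG17271 (333 bp from RpS20), CG3104 (292 bp from RpS21), CG4820 (248 bp from RpS25) and Nup37, a nuclear pore protein gene (144 bp from RpS27). At the unbound genes they included CSN8 with RpS13 (193 bp), Dhdds with RpS14a (391 bp), Lsm10 with RpS15Ab (36 bp), CG5854 with RpS19b (382 bp), Axn with RpS28a (194 bp) and inc with sta (66 bp).

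At 4 bound genes another gene's TSS also lay within 250 bp of the summit: CG17271 at RpS20, CG4820 at RpS25, Nup37 and the stable intronic RNA gene sisRNA:CR46364 at RpS27, and Ip259 at RpS27A. The first 3 genes had their own TSS closest to the summit, at 149 bp against 184 bp for RpS20, 42 bp against 206 bp for RpS25, and 9 bp against 135 bp and 101 bp for RpS27. RpS27A and Ip259 have the same annotated TSS, so that a peak of one cannot be told apart from a peak of the other. Small nucleolar RNA genes, which guide modification of ribosomal RNA and often lie in introns of ribosomal protein genes, were inside 7 of the 21 bound and 6 of the 18 unbound genes. RpS7 held 7 of them and RpS16 held 5. A single annotated TSS was present at 7 of the bound and 12 of the unbound genes, and a gene with more TSSs has more chances to be called. The bound genes were somewhat longer, with a median of 1487 bp against 1159 bp.

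Promoter words were searched on both strands from 150 bases before to 50 bases after the TSS farthest 5′. The DRE word TATCGATA was present at 13 of the 39 genes (33.3%), against 8.22% of all protein-coding genes and 25.9% of large subunit genes. It was present at 8 of the 21 bound and 5 of the 18 unbound genes. The TCT core, read on the gene's strand alone with its C within 5 bp of any TSS, was present at 22 of the 39 genes (56.4%) and 59.3% of large subunit genes, against 4.27% of all protein-coding genes. Of the bound genes 13 of 21 held it, and of the unbound genes 9 of 18. At the TSS farthest 5′ alone it was present at 4 of the bound and 7 of the unbound genes, so that the order of the shares turned with the choice of TSS.

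**Figure D4:**
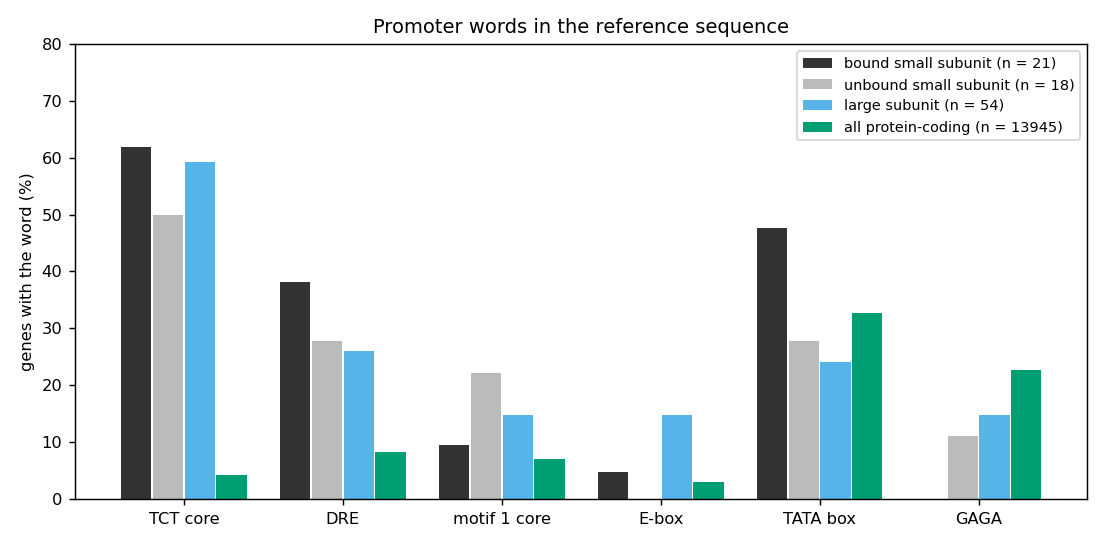
Share of genes, in percent, whose reference promoter holds each of 6 words, for bound and unbound small subunit genes, large subunit genes and all protein-coding genes. The TCT core is at any TSS and the others are from 150 bases before to 50 after the TSS farthest 5′; the TCT core is at 56.4% of the 39 genes and at 4.27% of all protein-coding genes.

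Of the other words, the TATA word TATAAA was present at 15 genes (38.5%, against 32.7% of all protein-coding genes), the motif 1 core GGTCACAC at 6 (15.4%, against 7.03%) and the E-box CACGTG at RpS28b alone (2.56%, against 418 of the 13945 protein-coding genes). The E-box was present at 14.8% of large subunit genes. The word GAGAG was present at 2 genes (5.13%, against 22.7%) and at none of the bound ones. The TATA word was present at 10 of the 21 bound and 5 of the 18 unbound genes, and the motif 1 core at 2 and 4. Within 50 bp of the summit the DRE word was present at 3 of the 21 peaks (14.3%), against 2.08% of the 1105 promoter peaks of protein-coding genes, and the TATA word at 2 (9.52%), against 24.1%. The small subunit summits lay nearer the TSS (median -10, against -115 over all bound protein-coding genes). These windows therefore cover different parts of the promoter in each set. A match describes letters in the reference and is not evidence of a site in use.

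Of 12 listed partners and assembly factors of the subunit, 11 matched the annotation by symbol. Rack1, a scaffold protein that sits on the head of the small subunit, was the 1 that was bound, with a conservative signal of 207.6 at -19. The share of 9.09% was near the 10.2% of all protein-coding genes, and the larger list and each replicate's own list gave 2 of the 11. The snoRNP proteins Fib, Nop56, nop5 and Nop60B, the late assembly factors bys, Tsr1, RIOK1 and RIOK2, the RpS6 kinase S6k, and l(1)G0004 were not bound in the conservative list.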

How the data were processed

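Chromatin immunoprecipitation was done on whole embryos, and sonication gave fragments of 200 to 800 bp, per the labels. The files are peak lists on dm6, per the labels. The sources used here name neither the aligner nor the peak caller. The signal of each peak was deposited by the authors, with its scaling not given. The IDR was computed from the −log10 value that the authors deposited beside each ranked peak. Read depth is unknown.

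Summits were set against Ensembl release 115 TSSs on 2L, 2R, 3L, 3R, 4 and X with Python 3.11.15, pandas 2.3.3 and numpy 2.4.6. Exact (Clopper-Pearson) intervals came from scipy 1.17.1 and alignments from Biopython 1.88 (match 1, mismatch -1, gap opening -2, extension -0.5). A gene's values are those of the peak of highest signal in its window. Peaks overlapped when they shared at least 50% of the shorter. With 1 group there was no contrast to test, and no p-value is given. Members, gene lists and words were chosen with earlier results of these data known. Some genes of the set are counted but not reported here by name. Values are given in full, among those named, for the 10 strongest bound genes, all paralogues, genes whose call differs between lists, and sta, RpS2, RpS3, RpS6 and RpS27A. The alternatives were windows of 100 and 500 bp, an IDR of at most 0.001, the larger list, each replicate's own list, the TSS farthest 5′ and overlap with the whole peak. The calling code was checked on simulated data.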

Additional observations from a re-analysis of the deposited data

How the results depend on the processing

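The 21 bound small subunit genes became 14 to 26 under the alternatives: 20 with a window of 100 bp, 21 with 500 bp, 26 in the larger list, 14 with an IDR of at most 0.001, 20 with the TSS farthest 5′ and 21 with the whole peak. With 1 replicate left out, the own list of the other gave 16 to 23. In no alternative was every gene of a paralogue family bound. The share of all protein-coding genes bound, 10.2%, was 4.22% with 100 bp, 13.2% with 500 bp and 13.4% in the larger list. It was 6.40% with an IDR of at most 0.001, 8.67% with the TSS farthest 5′ and 12.2% with the whole peak. With 1 replicate left out it was 8.18% to 10.8%. The median position of -10 turned to 6 in replicate 2's own list, with a range of -33.5 to 6 when a replicate was left out, and to 5.5 with the TSS farthest 5′. The cause was not tested. No paired analysis was possible because there is 1 group and no contrast. Without a control or read depth, a gene without a peak cannot be told apart from one below detection, and the replicates' lists differ in length by an amount whose cause was not tested.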
